A study of Mus musculus with 10 samples.

Results

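The genes of the mitochondrial respiratory chain were compared between obstructed and sham-operated mouse kidneys. They were taken by gene symbol: the protein genes of the mitochondrial genome (mt-), the Nduf, Sdh, Uqcr, Uqcc, Cox and Atp5 genes, Cyc1 and Cycs, 117 of the 13920 genes listed. Of these, 81 encode nuclear subunits of complexes I to V, 13 are the protein genes of the mitochondrial genome, 20 are assembly factors, and Cycs, Cox7a2l and Atp5s were held apart. The symbol rule places Ndufa4 and its relative Ndufa4l2 with complex I, although Ndufa4 is now known as a subunit of complex IV.

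The obstructed group (UUO, labelled Original UUO) was 5 libraries of total RNA from whole left kidneys of C57BL/6 mice after unilateral ureteral obstruction, in which 1 ureter is tied off and the kidney above it swells and scars. The control group (Sham, labelled Sham UUO) was 5 libraries of whole left kidneys of C57BL/6 mice after the sham operation. The labels give no treatment beyond surgery in either group, and neither the time after obstruction nor the sex. They also leave unsaid whether each library is a separate animal. The p-values therefore rest on the spread between these samples, which may be technical. The values were taken as FPKM, a measure corrected for the length of the transcript and the size of the library, but the deposited value of a gene was not the sum of its listed transcripts. That sum was 1 times the gene value for Cox8a and 11 to 11.4 times for Atp5l, so the order of levels between genes is given for the deposited gene values only. Without read counts, the depth of each library is unknown.

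The respiratory chain is built from 2 genomes. Complex I (NADH dehydrogenase) and complex II (succinate dehydrogenase) pass electrons to ubiquinone, complex III (cytochrome bc1) passes them to cytochrome c, and complex IV (cytochrome c oxidase) passes them to oxygen, while complexes I, III and IV pump protons that drive complex V, the ATP synthase. Complex II is encoded in the nucleus alone, and the others combine nuclear subunits with a small hydrophobic core made in the mitochondrion. In the kidney the proximal tubule is rich in mitochondria and relies on them to power the reabsorption of filtered solutes.

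Across the 13202 genes tested, the median difference between UUO and Sham was 0.40 on the log2(FPKM + 1) scale, so the typical gene was listed higher in UUO. A call was an adjusted p below 0.05 (limma, Benjamini-Hochberg over all genes tested). Under a median-of-ratios scaling, which sets the typical gene equal in every library, that median was -0.01. In the obstructed kidneys the sums of proximal tubule markers were 183 to 974 FPKM, against 1860 to 2430 in Sham, and 10 of 10 such markers were called lower. Fibroblast markers (7 of 7) and macrophage markers (7 of 7) were called higher, with sums of 313 to 631 and 720 to 1343 FPKM in UUO, against 16.2 to 27.8 and 32.2 to 49.999 FPKM in Sham. Of the markers of other tubule segments, 3 of 5 for the thick ascending limb, 3 of 4 for the distal convoluted tubule and 5 of 6 for the collecting duct were called lower, with 1, 1 and 0 called higher. Called higher too were 4 of 4 podocyte, 2 of 4 endothelial and 4 of 4 tested T and NK cell markers, with 0 lower. As a share of all genes tested, 58.5% were called higher and 16.1% lower. After median-of-ratios scaling 7 of 7 fibroblast, 7 of 7 macrophage and 4 of 4 T and NK cell markers were called higher. In podocyte markers 0 were then called, and in endothelial markers 1 was called higher and 1 lower. In whole-organ RNA, fewer cells of a type and less RNA per cell cannot be told apart, and the part of this change in cell markers in the results that follow was not tested.

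Sham 4 stood apart from the other Sham libraries. The sum of 6 fat markers was 294 FPKM in Sham 4, against 7.61 to 16.3 FPKM in the other Sham libraries and 15.6 to 38.1 FPKM in UUO. Ucp1, the uncoupling protein of brown fat, stood at 92.5 FPKM in Sham 4 and at no more than 1.46 FPKM in any other library. Markers of other cell types set Sham 4 apart as well. The collecting duct marker Aqp2 stood at 399 FPKM there and at 62.1 to 90.6 FPKM in the other Sham libraries. Slc12a1 of the thick ascending limb stood at 369 against 139 to 239 FPKM, and Pecam1 of the endothelium at 12.2 against 4.12 to 5.21 FPKM. The proximal tubule marker sum was the lowest of the Sham libraries (1860 FPKM). Without Sham 4, 93 members were called lower in UUO and 4 higher, and single results that rest on this library are given with and without it.

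Of the 116 members tested, 93 were called lower in UUO, 5 were called higher and 18 were not called, with a median log2 difference of -0.59, which is -0.99 relative to the median gene. Of all genes tested, 16.1% were called lower and 58.5% were called higher. Every UUO library lay below every Sham library in 79 of the 117 members, above in 4, and the groups overlapped in 34. Among all genes tested, the UUO libraries lay entirely below in 12.2% and entirely above in 47.5%. After median-of-ratios scaling 110 members were called lower and 2 higher, where 34.6% of all genes were called lower and 33.5% higher. After quantile normalization, which replaces values by those of their rank, 92 members were called lower and 5 higher, where 36.3% of all genes were called lower and 30.1% higher. With equal sums over all genes in every library 82 members were called lower and 10 higher, where 11.7% of all genes were called lower and 67.3% higher. In 21 members called lower the Sham mean was at least 2 times the UUO mean, and 9 of these belong to the mitochondrial genome. The share of all genes that meet both conditions is not given here, so this count describes the members only.

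**Figure D1:**
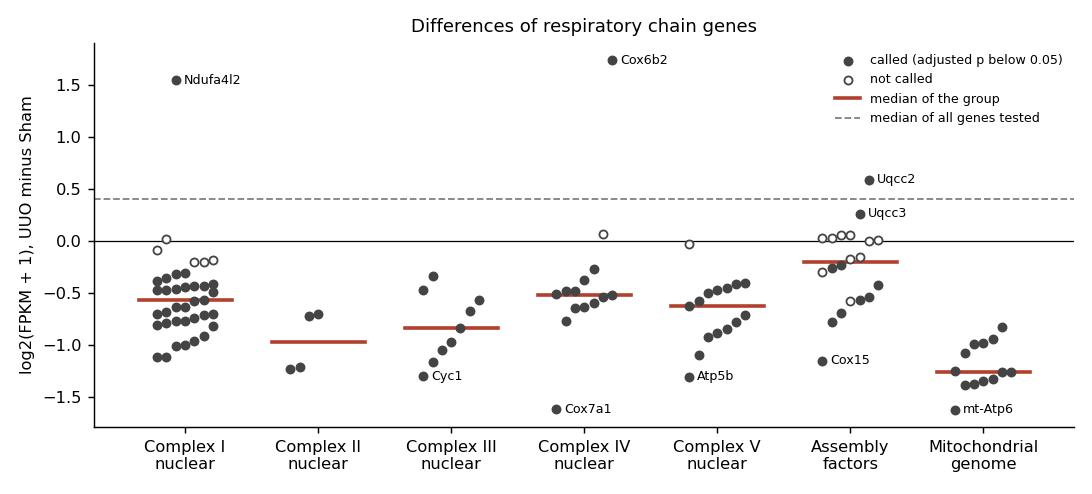
Difference in log2(FPKM + 1), UUO minus Sham, of each tested subunit and assembly factor by complex and genome. Filled points were called in limma, red lines are group medians (-0.20 for assembly factors to -1.26 for the mitochondrial genome), and the dashed line is the median of all genes tested (0.40).

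The 13 protein genes of the mitochondrial genome were all called lower, with a median log2 difference of -1.26, and in each of them every UUO library lay below every Sham library. After quantile normalization 7 of the 13 were called lower, 0 of the 3 complex IV genes among them, with a median of -0.30. Together they made up 12.5, 9.31, 12.1, 13.4 and 10.6% of the FPKM sum over all genes in UUO 1 to 5, against 21.2, 21.7, 21.7, 24.5 and 21.5% in Sham 1 to 5. The highest UUO library, UUO 4, was thus below the lowest Sham library. UUO 4 was also highest among the UUO libraries in the nuclear subunit share (3.16%) and in the proximal tubule marker sum (974 FPKM). UUO 2 was lowest in the mitochondrial share, and UUO 3 was lowest in the proximal tubule marker sum (183 FPKM).

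Complex I takes 7 of these genes. mt-Nd1, which encodes the membrane subunit next to the quinone site, stood at 4386, 3316, 4245, 4996 and 3874 FPKM in UUO 1 to 5, against 8011, 8600, 7871, 8183 and 8211 FPKM in Sham 1 to 5. The groups were far apart, and UUO 2 was the lowest library (log2 difference -0.99, SE 0.15, limma adjusted p = 0.000142). After quantile normalization the difference of mt-Nd1 was 0.042 and not called. mt-Nd2, mt-Nd3, mt-Nd4, mt-Nd4l and mt-Nd5, further membrane subunits of the proton-pumping arm, had Sham means 2.30 to 2.59 times the UUO means. mt-Nd6, the only protein gene on the other strand, averaged 173 ± 32.1 FPKM in UUO and 362 ± 27.5 FPKM in Sham (SD, n = 5 each). Its end overlaps that of mt-Nd5 on the opposite strand. The preparation was stranded, which can tell such reads apart, but whether strand was used to assign reads was not checked. On the same strand mt-Nd4l and mt-Nd4 overlap as well, so how reads were split within that pair is uncertain.

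mt-Cytb, the haem-bearing cytochrome b of complex III, stood at 5039, 3210, 4410, 5350 and 3840 FPKM in UUO 1 to 5, against 10024, 10411, 10322, 10201 and 10430 FPKM in Sham 1 to 5. The Sham libraries were close together and the UUO libraries varied more, without overlap (log2 difference -1.26, SE 0.17, limma adjusted p = 6.38e-05). The complex IV genes showed the smallest differences of the 13. mt-Co1 (chrM:5328-6872), the catalytic subunit that reduces oxygen, stood at 6300, 4597, 6238, 6561 and 5560 FPKM in UUO 1 to 5, against 9945, 10079, 10132, 10872 and 10404 FPKM in Sham 1 to 5. The UUO mean of mt-Co1 was 0.569 times the Sham mean (log2 difference -0.82, SE 0.16, limma adjusted p = 0.000663), without overlap. mt-Co2, which receives electrons from cytochrome c, and mt-Co3 had log2 differences of -0.98 and -0.95. After quantile normalization the differences were 0.12 for mt-Co1, -0.11 for mt-Co2 and 0.12 for mt-Co3, and none of these 3 was called.

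In complex V, mt-Atp8, a small membrane subunit, averaged 2446 ± 329 FPKM in UUO and 5831 ± 360 FPKM in Sham (SD, n = 5 each), with a log2 difference of -1.26 (SE 0.14, limma adjusted p = 1.34e-05), and of -0.11 and not called after quantile normalization. mt-Atp6, the proton channel subunit, stood at 626, 412, 646, 684 and 603 FPKM in UUO 1 to 5, against 1262, 1374, 1418, 6810 and 1145 FPKM in Sham 1 to 5. Sham 4 alone was far above the rest. The log2 difference of mt-Atp6 was -1.62 with all libraries (SE 0.44, limma adjusted p = 0.00601) and -1.14 without Sham 4 (SE 0.16, limma adjusted p = 9.24e-05). The genes mt-Atp8 (chrM:7766-7969) and mt-Atp6 (chrM:7927-8607) overlap, and the ratio of mt-Atp8 to mt-Atp6 was 3.75 to 4.67 in UUO, 4.22 to 4.88 in the other Sham libraries and 0.897 in Sham 4.

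The makeup of the mitochondrial RNA differed as well. The 3 complex IV genes made up 37.8 to 39.9% of the sum of the 13 genes in UUO, against 30.6 to 35.1% in Sham. With mt-Atp6 left out of the sum, these shares were 38.5 to 40.6% in UUO and 32.7 to 35.6% in Sham, so the groups stayed apart. mt-Co1 alone made up 16.8, 17.5, 17.5, 16.2 and 18.1% of the sum in UUO 1 to 5, against 14.1, 13.5, 13.8, 13.5 and 14.3% in Sham 1 to 5. mt-Nd1 also took a larger share in UUO (11.7 to 12.6%) than in Sham (10.2 to 11.5%), and mt-Nd4l a smaller one (2.86 to 3.32% in UUO, 3.42 to 3.83% in Sham). In the other 10 genes the shares of the groups overlapped. These shares do not depend on the scaling of a library as a whole.

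**Figure D2:**
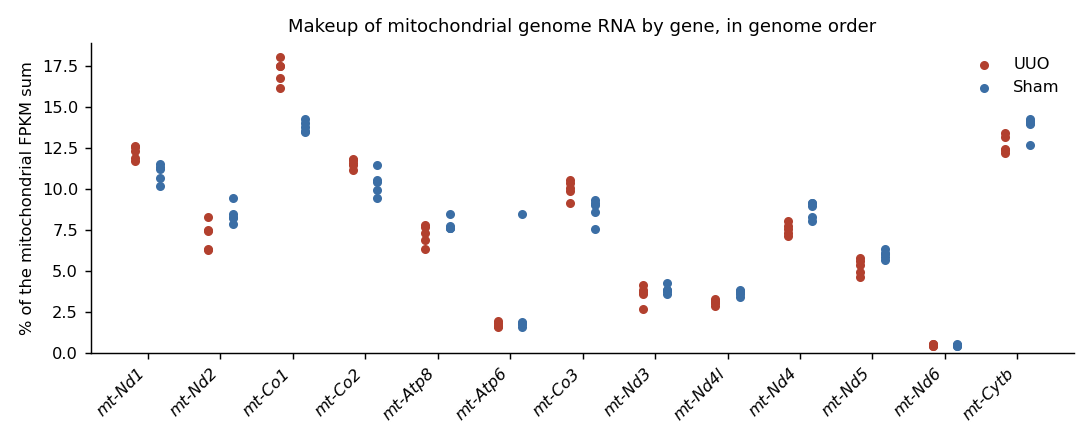
Share of each of the 13 protein genes in the mitochondrial FPKM sum, in percent, in genome order, with 1 point per library. mt-Co1 and mt-Nd1 lie higher and mt-Nd4l lower in every UUO library than in every Sham library, and Sham 4 is the single high point of mt-Atp6 (8.47%).

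RNA of the mitochondrial genome was further below Sham than that of the nuclear subunits. The 81 nuclear subunit genes made up 2.87, 2.57, 2.52, 3.16 and 2.98% of the FPKM sum in UUO 1 to 5, against 3.90, 4.06, 3.8, 3.66 and 3.89% in Sham 1 to 5. The ratio of the mitochondrial to the nuclear subunit sum was 4.35, 3.63, 4.82, 4.23 and 3.56 in UUO 1 to 5, against 5.43, 5.36, 5.70, 6.69 and 5.53 in Sham 1 to 5. The groups did not overlap, and the ratio does not depend on the scaling of a library as a whole. Quantile normalization turned its direction (log2 of the ratio of means 0.32 after it, against -0.48 as deposited). Between 10 and 12 of the 13 mitochondrial genes stood among the 20 highest genes of every library, where a rank leaves little room for a difference.

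**Figure D3:**
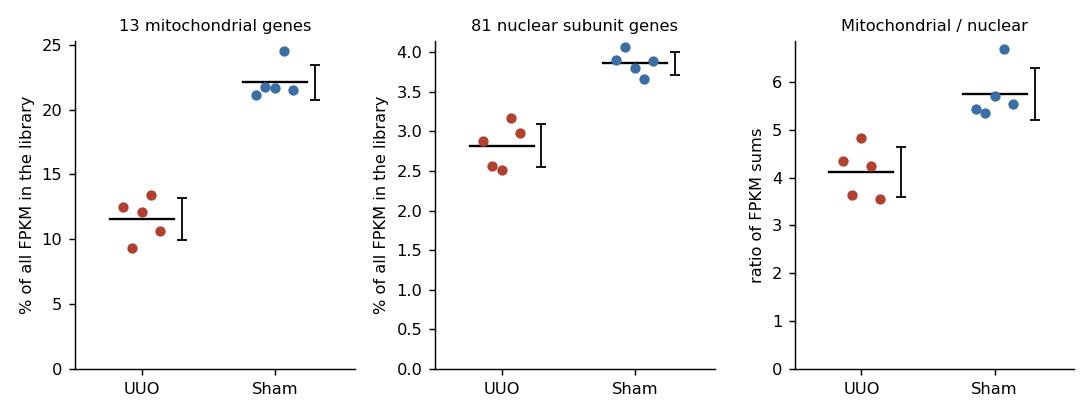
Share of the FPKM sum of each library held by the 13 mitochondrial genes (left) and the 81 nuclear subunit genes (middle), in percent, and the ratio of the sums (right). Points are libraries, lines means and bars SD (n = 5 each). In all 3 panels every UUO library lies below every Sham library.

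Of the 80 nuclear subunits tested, 71 were called lower, 2 higher and 7 were not called, and the median log2 difference was -0.61 (quartiles -0.81 and -0.44). In complex I, all 7 nuclear core subunits, most of which carry the flavin or iron-sulfur clusters, were called lower, with a median of -0.82. Of the 31 genes counted as accessory subunits, 25 were called lower and 1 higher, with a median of -0.49. By the symbol rule these 31 include Ndufa4 and Ndufa4l2, and the 1 called higher was Ndufa4l2. The largest fall was that of Ndufs1, the core subunit with the most iron-sulfur clusters (chr1:63143596-63176833). It stood at 18.3, 15.1, 12.6, 20.8 and 20.2 FPKM in UUO 1 to 5, against 36.6, 37.8, 39.2, 35.5 and 42.3 FPKM in Sham 1 to 5. No library of Ndufs1 overlapped between the groups (log2 difference -1.11, SE 0.13, limma adjusted p = 1.6e-05). The accessory subunit Ndufa10, named after its value was seen, had nearly the same log2 difference (-1.11). By transcript sums the Sham mean was 3.15 times the UUO mean for Ndufa10 and 2.58 times for Ndufs1. The transcript sum of Ndufa10 was 0.268 to 0.486 times its gene value. Ndufa1, the accessory subunit with the highest mean gene value over all 10 libraries, averaged 203 ± 32.4 FPKM in UUO and 345 ± 44.9 FPKM in Sham (log2 difference -0.77, SE 0.13, limma adjusted p = 0.000286). In UUO alone Ndufa6 had a higher gene value (227 FPKM), and by transcript sums Ndufa4 (253 FPKM in UUO, 430.0 FPKM in Sham) and Ndufb9 (225 FPKM in UUO, 376 FPKM in Sham) were above Ndufa1.

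A few complex I subunits were not called. Ndufa2, an accessory subunit of the peripheral arm, averaged 201 ± 28.2 FPKM in UUO and 212 ± 19.6 FPKM in Sham (log2 difference -0.08, limma adjusted p = 0.506). The difference of Ndufa2 was -0.59 after median-of-ratios scaling, where it was called, and above 0 after quantile normalization (0.10) and with equal sums over all genes (0.11). Ndufa3, Ndufa7, Ndufb7 and Ndufs4 were the other 4, with log2 differences of -0.21 to 0.02. After median-of-ratios scaling all 5 were called lower, and with equal sums over all genes Ndufa7 was called higher.

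The files also give values of single transcripts. Of the 117 members, 109 had a ratio of transcript sum to gene value that differed by under 1.5 times between libraries. Of 96 member transcripts tested, from 55 genes, 0 were called by limma, with 9 at an unadjusted p under 0.05, where 0.714% of the 14003 transcripts tested were called. Without UUO 2, 2 member transcripts were called. Judged by transcript sums, UUO lay entirely below Sham in 82 members and entirely above in 4 (Ndufa4l2, Cox6b2, Cox7a2l and Uqcc2). The shares of all genes by transcript sums are not given here. By deposited gene values, UUO lay entirely below in 12.2% of all genes tested and entirely above in 47.5%.

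Complex II fell as a whole, with all 4 genes called and no overlap in any. Sdhb, the iron-sulfur subunit, stood at 67.1, 64.2, 58.8, 73.5 and 82.0 FPKM in UUO 1 to 5, against 170, 169, 160, 144 and 168 FPKM in Sham 1 to 5 (log2 difference -1.23, SE 0.10, limma adjusted p = 1.18e-06). The lowest Sham library, Sham 4, was still well above the highest UUO library. Sdha, the flavin subunit that oxidises succinate, averaged 88.6 ± 15.2 FPKM in UUO and 204 ± 4.83 FPKM in Sham (log2 difference -1.21, SE 0.11, limma adjusted p = 3.95e-06). The membrane anchors Sdhd and Sdhc differed less, by -0.72 and -0.70 on the log2 scale. As a share of the nuclear subunit sum, complex II took 4.31 to 4.77% in UUO, against 5.47 to 5.64% in Sham. The shares of complexes III and V were also lower in every UUO library, and those of complexes I (36.3 to 37.1% in UUO, 33.2 to 35% in Sham) and IV (25.4 to 26.95% in UUO, 23.6 to 24.8% in Sham) were higher.

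In complex III, 9 of 9 nuclear subunits were called lower, with a median of -0.84 and no overlap. Cyc1, the haem protein cytochrome c1 (chr15:76343523-76345934), stood at 105, 89.1, 94.9, 118 and 125 FPKM in UUO 1 to 5, against 263, 284, 258, 237 and 263 FPKM in Sham 1 to 5. The groups of Cyc1 were well separated (log2 difference -1.30, SE 0.10, limma adjusted p = 1.28e-06). Uqcr10, the nuclear subunit with the highest gene value, averaged 288 ± 48.6 FPKM in UUO and 424 ± 33.0 FPKM in Sham, with a log2 difference of -0.57. Uqcrb, a small subunit that binds ubiquinone, had a difference of -0.47. Cycs, the mobile carrier cytochrome c, averaged 78.8 ± 20.5 FPKM in UUO and 149 ± 12.8 FPKM in Sham (log2 difference -0.95, SE 0.16, limma adjusted p = 0.000279).

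In complex IV, 12 of 14 nuclear subunits tested were called lower and 1 higher, with a median of -0.52. Cox8a, the nuclear subunit with the highest gene value, averaged 398 ± 71.6 FPKM in UUO and 614 ± 61.9 FPKM in Sham (log2 difference -0.64, SE 0.13, limma adjusted p = 0.00116). By transcript sums Cox6a1 was above Cox8a, with 469.96 FPKM in UUO and 653 FPKM in Sham. Cox4i1, the main form of the regulatory subunit 4, had a log2 difference of -0.38 and no overlap. Cox7c averaged 223 ± 23.3 FPKM in UUO and 269 ± 28.7 FPKM in Sham, with a log2 difference of -0.27 (limma adjusted p = 0.0292). The call of Cox7c was lost in 6 of the 10 fits that leave out 1 library, where the adjusted p of limma was 0.0524 to 0.0743, and it was also lost after quantile normalization (-0.11) and with equal sums over all genes (-0.07).

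In complex V, 14 of 15 nuclear subunits were called lower, with a median of -0.62. Atp5b, the catalytic beta subunit (chr10:128083273-128090391), stood at 181, 200, 184, 218 and 262 FPKM in UUO 1 to 5, against 533, 509, 494, 506 and 522 FPKM in Sham 1 to 5. Even the highest UUO library was far below Sham (log2 difference -1.30, SE 0.11, limma adjusted p = 1.49e-06). Atp5h, a subunit of the stalk that holds the catalytic head, differed less, with means of 175 ± 20.02 FPKM in UUO and 233 ± 10.8 FPKM in Sham and a log2 difference of -0.42. Atp5g2, which encodes the membrane ring subunit c, was not called (65.0 ± 8.33 FPKM in UUO, 66.7 ± 10.9 FPKM in Sham). Its difference was -0.03 as deposited, -0.54 and called after median-of-ratios scaling, and above 0 after quantile normalization (0.07) and with equal sums over all genes (0.16). Atp5g1 and Atp5g3, which encode the same mature protein as Atp5g2, had log2 differences of -0.84 and -0.71 and were called. The ratio of Atp5g2 to Atp5g3 was 0.348 to 0.523 in UUO and 0.201 to 0.286 in Sham.

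The size of the fall differed with transcript length. Among the 73 of 80 nuclear subunits whose most abundant transcript has a length in the annotation, Spearman's rho between length and log2 difference was -0.45. The 48 subunits with transcripts under 1000 bases had a median difference of -0.48, and the 25 longer ones a median of -0.91. Across 12262 genes tested the same rho was 0.0034, and across 2165 genes with a mean of at least 20 FPKM it was -0.11. Among 18 assembly factors it was -0.74. These are correlations across genes measured in the same 10 libraries, and genes are not independent replicates.

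**Figure D4:**
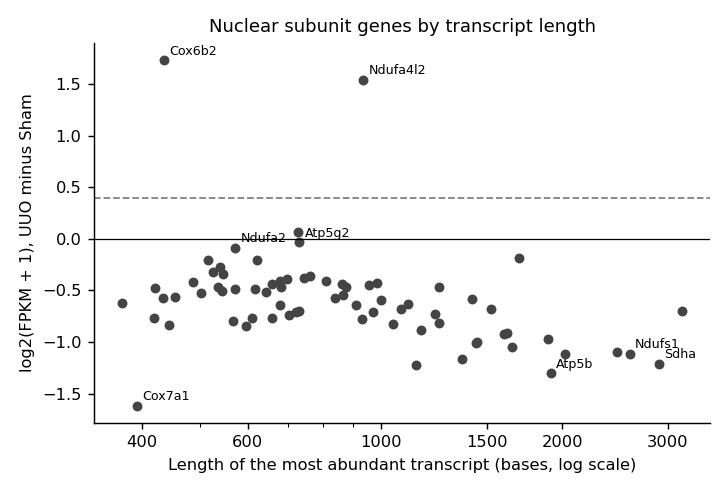
Log2 difference, UUO minus Sham, of each nuclear subunit gene against the length of its most abundant transcript in bases (log scale). The dashed line is the median of all genes tested (0.40), and most long transcripts lie below -0.48, the median of those under 1000 bases.

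Several members come in tissue or stress forms, and some of these differed from their relatives. Ndufa4l2, the hypoxia-inducible relative of Ndufa4 (chr10:127514967-127517154), stood at 10.9, 5.57, 7.81, 6.92 and 5.6 FPKM in UUO 1 to 5, against 1.36, 1.5, 1.9, 2.49 and 1.88 FPKM in Sham 1 to 5. Every UUO library was above every Sham library, and the difference was 1.54 (SE 0.17, limma adjusted p = 1.29e-05). Ndufa4 averaged 110 ± 14.1 FPKM in UUO and 187 ± 11.6 FPKM in Sham, so the ratio of Ndufa4l2 to Ndufa4 was 0.0526 to 0.0931 in UUO and 0.00715 to 0.0149 in Sham. Cox6b2, known as the testis form of subunit 6b, stood at 11.1, 7.49, 9.93, 8.48 and 5.46 FPKM in UUO 1 to 5, against 2.12, 1.94, 1.61, 1.97 and 1.36 FPKM in Sham 1 to 5. All UUO libraries of Cox6b2 were above Sham, by 4.71-fold in means (log2 difference 1.73, SE 0.16, limma adjusted p = 3.6e-06). By transcript sums the means of Cox6b2 differed by 3.12-fold, also without overlap. Its transcript sum was 1.16 to 2.28 times the gene value in UUO and 1.74 to 2.60 times in Sham, and it is 1 of the 8 members in which this ratio differed by 1.5 times or more between libraries. Cox6b1, the widespread form, was lower in UUO (359 ± 48.9 FPKM) than in Sham (499 ± 18.6 FPKM). Ndufa4l2 and Cox6b2 were called higher under each of the 4 other scalings run.

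Cox7a2l, which takes part in joining complexes III and IV into supercomplexes, stood at 150, 153, 164, 133 and 140 FPKM in UUO 1 to 5, against 117, 103, 111, 131 and 111 FPKM in Sham 1 to 5. The lowest UUO library was just above Sham 4. Its log2 difference was 0.37 as deposited (SE 0.09, limma adjusted p = 0.00246) and -0.14 after median-of-ratios scaling, where it was not called. Relative to Cox7a2, the ratio was 0.639 to 0.999 in UUO and 0.311 to 0.523 in Sham.

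Cox7a1, the heart, muscle and brown fat form of subunit 7a, had the largest fall of any nuclear member. It stood at 9.22, 6.27, 5.57, 10.4 and 7.69 FPKM in UUO 1 to 5, against 24.3, 24, 18.3, 46.4 and 21.4 FPKM in Sham 1 to 5, with Sham 4 far above the other Sham libraries. The log2 difference of Cox7a1 was -1.61 (SE 0.24, limma adjusted p = 9.86e-05), and -1.40 without Sham 4 (SE 0.17, limma adjusted p = 3.3e-05), so the difference was called without the library with fat markers. Cox8b, the muscle and brown fat form of subunit 8, was not tested. It was listed at 90.0 FPKM in Sham 4 and at 0 to 2.56 FPKM in the other 9 libraries. Cox4i2 and Cox6a2 averaged under 1.5 FPKM in both groups. Cox6a2 was called lower (log2 difference -0.64, limma adjusted p = 0.00865), and Cox4i2 was not called (0.07 as deposited, -0.13 after median-of-ratios scaling). The libraries of Cox6a2 overlapped, with 0.201 to 0.996 FPKM in UUO and 0.593 to 2.09 FPKM in Sham. The ratios of Cox4i2 to Cox4i1, Cox6a2 to Cox6a1 and Cox8b to Cox8a also overlapped between the groups.

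**Figure D5:**
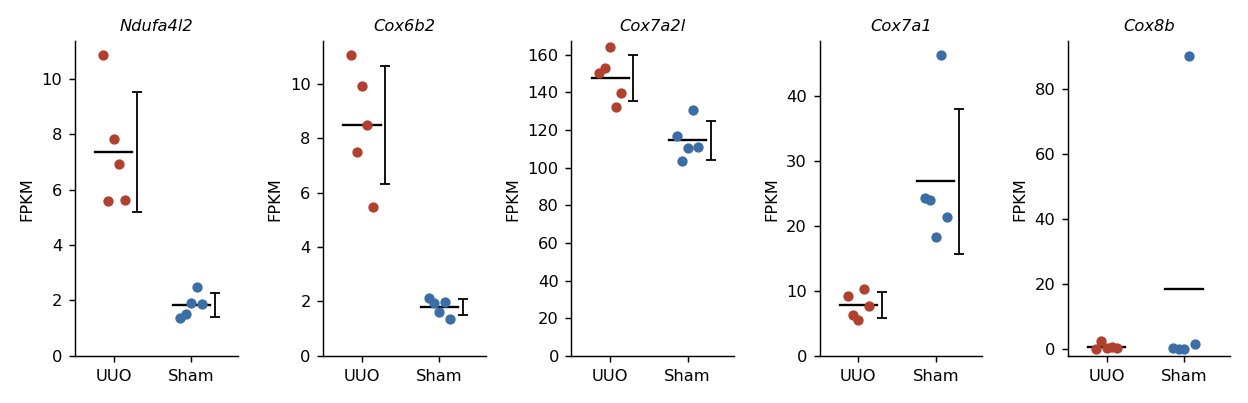
FPKM of 5 members in each library of UUO and Sham, with means and, except for Cox8b, SD bars (n = 5 each). Ndufa4l2, Cox6b2 and Cox7a2l are higher in every UUO library, Cox7a1 is lower in every UUO library, and Sham 4 is the single high point of Cox8b (90.0 FPKM).

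Assembly factors insert cofactors and join subunits without staying in the finished complex. Of 20, 8 were called lower, 2 higher and 10 were not called, with a median log2 difference of -0.20. After median-of-ratios scaling 18 of the 20 were called lower and 0 higher, with a median of -0.68, and after quantile normalization 15 were called lower and 2 higher. Their sum was 4.53, 4.65, 4.93, 4.09 and 4.29% of the nuclear subunit sum in UUO 1 to 5, against 3.1, 2.96, 3.09, 3.09 and 3.1% in Sham 1 to 5. Every UUO library was higher in this ratio, which does not depend on the scaling of a library as a whole. The largest fall was that of Cox15, which makes the haem A of complex IV: 8.46, 8.71, 7.53, 9.91 and 10.4 FPKM in UUO 1 to 5, against 23.2, 22.4, 21.9, 17 and 21.5 FPKM in Sham 1 to 5. Sham 4 was the lowest Sham library and still above all UUO libraries (log2 difference -1.15, SE 0.10, limma adjusted p = 3.31e-06).

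Both assembly factors called higher belong to complex III, which has 3 in the set. Uqcc2, needed for the synthesis and stability of cytochrome b, averaged 46.2 ± 9.76 FPKM in UUO and 30.0 ± 2.81 FPKM in Sham, without overlap (log2 difference 0.58, SE 0.13, limma adjusted p = 0.00214). Uqcc3 averaged 47.8 ± 6.83 FPKM in UUO and 39.4 ± 2.89 FPKM in Sham (log2 difference 0.26, limma adjusted p = 0.036), and its call was lost in 7 of the 10 fits that leave out 1 library (limma adjusted p = 0.0534 to 0.0837 there). After median-of-ratios scaling neither was called, and the differences were 0.09 for Uqcc2 and -0.24 for Uqcc3. Uqcc1, named after its value was seen, was called lower, with means of 6.61 ± 1.63 FPKM in UUO and 11.2 ± 1.38 FPKM in Sham (log2 difference -0.70, SE 0.15, limma adjusted p = 0.00127). Cox14, an early complex IV assembly factor, and Ndufaf8, a complex I assembly factor, had log2 differences of 0.02 and 0.00 as deposited and were not called. After median-of-ratios scaling both were called lower, at -0.48 and -0.49, and with equal sums over all genes both were called higher, at 0.22 and 0.19. With equal sums the median of all genes was 0.55, above both, and 67.3% of all genes were called higher.

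Promoter sequence was searched because nuclear respiratory genes are known targets of NRF1, of the ETS factor GABP, of YY1 and of the oestrogen-related receptors. Of 104 nuclear members, 84 matched RefSeq's promoter table for GRCm38.p6, with 90 windows of 250 bases before to 50 after the start. Both strands were searched for exact letters. The NRF1 core TGCGCATGC was found in 6.67% of member windows and in 2.78% of 13072 windows of genes tested. The ETS motif CCGGAAG was found in 26.7% of member windows and 16.5% of those of genes tested, the YY1 motif AAGATGGC in 14.4% and 4.14%, and the ERR motif TCAAGGTCA in 2.22% and 0.268%. No motif holds another within its letters. Nuclear subunits with the ETS motif had a median log2 difference of -0.49 (16 genes), and those without it -0.59 (48 genes). For the NRF1 core these medians were -0.49 (5 genes) and -0.59 (59 genes), for the YY1 motif -0.43 (9 genes) and -0.59 (55 genes), and for the ERR motif -0.72 (2 genes) and -0.57 (62 genes). None of these differences was tested.

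Of 58 nuclear subunits called lower with a listed promoter, 12 had a match in the 250 bases before the start. The sequences below are the 3 of these with the most matches and then the largest fall, and that of Cox6b2, the subunit with the largest rise, which held no match. Capitals mark the matches: the NRF1 core and the ETS motif, both on the opposite strand, in Atp5l, and the ETS motif in Uqcr11 and Ndufs3. Atp5l encodes a membrane subunit of complex V (log2 difference -0.50), Uqcr11 a small subunit of complex III (-0.84) and Ndufs3 a core subunit of complex I (-0.82).
Atp5l (chr9:44920743-44920992, minus strand): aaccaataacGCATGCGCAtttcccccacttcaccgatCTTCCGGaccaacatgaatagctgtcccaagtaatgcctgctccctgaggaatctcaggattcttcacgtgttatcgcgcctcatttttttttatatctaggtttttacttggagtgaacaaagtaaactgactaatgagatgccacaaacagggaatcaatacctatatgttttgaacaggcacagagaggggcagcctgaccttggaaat
Uqcr11 (chr10:80406822-80407071, minus strand): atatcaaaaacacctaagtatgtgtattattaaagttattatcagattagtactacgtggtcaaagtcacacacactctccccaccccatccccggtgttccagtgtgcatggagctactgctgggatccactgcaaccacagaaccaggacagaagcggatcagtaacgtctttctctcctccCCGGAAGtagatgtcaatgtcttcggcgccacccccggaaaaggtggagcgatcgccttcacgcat
Ndufs3 (chr2:90904722-90904971, minus strand): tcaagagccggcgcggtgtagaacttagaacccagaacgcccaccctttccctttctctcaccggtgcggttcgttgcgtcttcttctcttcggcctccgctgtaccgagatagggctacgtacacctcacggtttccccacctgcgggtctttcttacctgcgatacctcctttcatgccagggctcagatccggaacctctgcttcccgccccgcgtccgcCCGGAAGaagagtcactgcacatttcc
Cox6b2 (chr7:4753095-4753344, minus strand): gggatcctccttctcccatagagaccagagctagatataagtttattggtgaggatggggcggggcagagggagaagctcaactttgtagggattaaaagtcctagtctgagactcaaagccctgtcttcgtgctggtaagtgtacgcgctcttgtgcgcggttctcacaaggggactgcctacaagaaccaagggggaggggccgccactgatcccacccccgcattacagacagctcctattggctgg

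Lists of genes that work with the chain were counted in the same way. For the counts here and in the next paragraphs, the shares over all genes tested were 16.1% called lower and 58.5% higher. After median-of-ratios scaling these shares were 34.6% and 33.5%. Of 12 genes that make ubiquinone or feed electrons to it, 9 were called lower and 0 higher, with 3 not called. Coq9, needed for ubiquinone synthesis, averaged 19 ± 3.89 FPKM in UUO and 49.999 ± 4.65 FPKM in Sham (log2 difference -1.36, SE 0.13, limma adjusted p = 3.94e-06). Etfb, a subunit of the flavoprotein that carries electrons from fatty acid oxidation, averaged 119 ± 43.3 FPKM in UUO and 201 ± 33.6 FPKM in Sham, with overlap (log2 difference -0.82, limma adjusted p = 0.00831).

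Of 25 genes of mitochondrial import, chaperones and the outer membrane, 14 were called lower and 2 higher, and after median-of-ratios scaling 23 were called lower and 0 higher. The chaperonin Hspd1 averaged 129 ± 32.1 FPKM in UUO and 303 ± 26.4 FPKM in Sham (log2 difference -1.26), and the outer membrane channel Vdac1 187 ± 44.4 FPKM in UUO and 298 ± 22 FPKM in Sham (-0.70). Of 14 genes that maintain, transcribe or stabilise mitochondrial DNA and RNA, 4 were called lower and 4 higher, with a median of 0.06. Lrpprc, which stabilises mitochondrial messenger RNA, had a log2 difference of -0.75 (limma adjusted p = 5.34e-05), and the transcription factor Tfb2m one of -0.51 (limma adjusted p = 5.41e-05), both without overlap. After median-of-ratios scaling 10 of these 14 genes were called lower and 0 higher.

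Of 11 nuclear regulators of respiratory genes, 6 were called lower and 4 higher. Ppara, the receptor that drives fatty acid oxidation genes, averaged 2.71 ± 1.49 FPKM in UUO and 8.25 ± 0.878 FPKM in Sham (log2 difference -1.39, SE 0.21, limma adjusted p = 0.000111). Esrra, an oestrogen-related receptor, had a difference of -0.51 (limma adjusted p = 0.0105), which was not called with equal sums over all genes. Ppargc1a, the coactivator PGC-1alpha, named after its value was seen, averaged 9.87 ± 0.915 FPKM in UUO and 14.3 ± 2.62 FPKM in Sham, without overlap (log2 difference -0.49, limma adjusted p = 0.00222). The 4 called higher, also named after their values were seen, were Pprc1 (0.90), Gabpb1 (0.74), Yy1 (0.29) and Nrf1 (0.29). After median-of-ratios scaling Pprc1 and Gabpb1 were called higher, Nrf1 was not called (0.04) and Yy1 was called lower (-0.19).

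Assembly factors outside the symbol rule were counted by complex, and a difference between complexes was not tested. The complex V list also holds genes of regulation and the associated subunit Usmg5, so its count is not of assembly factors alone. Of 8 for complex I, 6 were called lower and 0 higher, led by Aifm1, a flavoprotein that acts in the import of proteins between the membranes (20.7 ± 4.03 FPKM in UUO, 48.8 ± 2.86 FPKM in Sham). Of 4 for complex II, Sdhaf1, which helps to insert iron-sulfur clusters, was called lower (log2 difference -0.70), 1 was called higher, and Sdhaf4 was not called (-0.15 as deposited, 0.04 with equal sums over all genes). Of 3 for complex III, Bcs1l, the translocase of the Rieske protein, was called lower (-0.33), except with equal sums over all genes, and the other 2 were not called. Of 16 for complex IV, 6 were called lower and 3 higher. Among them Taco1, the translational activator of mt-Co1, had a difference of -0.85, and Higd2a one of -0.45, which was not called after quantile normalization or with equal sums over all genes. Of 6 for complex V, 4 were called lower and 0 higher, including the chaperone Atpaf1 (-0.64) and Usmg5, a small subunit associated with the synthase (-0.36), whose call was lost after quantile normalization and with equal sums over all genes. After median-of-ratios scaling 8 of 8 were called lower for complex I, 4 of 4 for complex II, 2 of 3 for complex III, 11 of 16 for complex IV and 6 of 6 for complex V, and 0 were called higher.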

How the data were processed

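Total RNA of whole left kidneys was sequenced after a stranded preparation, in 10 libraries. The submitters' processing notes name cutadapt, HISAT2, StringTie and GRCm38. Versions and annotation were not given in the sources used here. Deposited by the authors was 1 value per gene and per transcript, with no unit in the header. These deposited values were taken as FPKM from their decimals and column sums. Were they TPM, each library would change by a single factor, which the scalings below cover. Gene values are not the sums of the listed transcripts. No counts were given, so intervals for counting error cannot be had. No column of values was left unused (0 columns), and 1 empty line was dropped.

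The fits used log2(FPKM + 1) and limma 3.58.1 in R 4.3.3 (lmFit, eBayes with a trend), for the 13202 genes that reached 0.5 FPKM in 5 or more libraries. P-values were adjusted by Benjamini-Hochberg over all genes tested, with calls under 0.05. Because 1 is added, differences understate the change of low genes. Folds are ratios of mean FPKM. Transcript shares were transformed by the arcsine of the square root and tested in limma, for transcripts holding at least 5% of a gene of at least 1 FPKM, and called at 10 or more percentage points. The fitting code was also run on simulated data, in which genes were independent and few were changed. In these libraries most genes were called, so that run does not check the calls made here. Tables and figures used Python 3.11.15, numpy 2.4.6, pandas 2.3.3 and matplotlib 3.10.9. Alternatives were median-of-ratios, quantile and equal-sum scalings, pseudocounts of 0.1 and 0.01, a filter of 1 FPKM or none, limma without a trend, a replicate block, and each library left out.

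Members and lists were chosen with earlier results of these data known. The text names every mitochondrial genome gene, the Sdh genes, Cyc1, Cycs and pairs of related isoforms. Per complex and for the assembly factors it names the called members with the largest fall and rise, the member with the highest mean, and the least changed of the 5 highest. From each list it names the called member with the largest change and the member with the highest mean. Atp5l, Uqcr11, Ndufs3, genes set beside others by transcript sums, members named only for not being called, and genes marked as such in the text were named after their values were seen, as was the comparison of transcript sums with gene values. Some results are not reported here.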

Additional observations from a re-analysis of the deposited data

Results flagged for a closer look

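Of 94 groups of 5 libraries tested for a library far from the others, 4 had one, in each case Sham 4. Chance alone marks about 1 in 20 such groups. mt-Atp6 stood at 6810 FPKM in Sham 4, against 1145 to 1418 FPKM in the other Sham libraries. Cox8b stood at 90.0 FPKM, against 0 to 1.68 FPKM. Cox7a1 stood at 46.4 FPKM, against 18.3 to 24.3 FPKM. Cox15 stood at 17 FPKM, against 21.5 to 23.2 FPKM. The fat markers Cidea (61.6 FPKM), Adipoq (28.1 FPKM) and Fabp4 (101 FPKM) were also highest in Sham 4. So was the collecting duct marker Aqp2 (399 FPKM). The part of these markers in the values above was not tested. Without Sham 4, Cox15 had a log2 difference of -1.22 and Cox8b averaged 0.825 ± 1.01 FPKM in UUO (n = 5) and 0.516 ± 0.796 FPKM in Sham (n = 4).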

How the results depend on the processing

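The choice of scaling moved counts more than any other alternative. The median difference of nuclear members was -0.54 as deposited, -1.02 after median-of-ratios scaling and -0.36 with equal sums over all genes. That of the mitochondrial genome was -1.26 as deposited, -1.77 after median-of-ratios scaling and -0.30 after quantile normalization, where 7 of its genes were called lower. Quantile normalization put mt-Nd1 (0.042), mt-Co1 (0.12), mt-Co3 (0.12) and the ratio of mitochondrial to nuclear subunit sums (0.32, against -0.48) above 0, all below it as deposited. Median-of-ratios scaling gave 2 members called higher, 0 assembly factors, 0 complex III genes and 1 complex IV gene, with 18 assembly factors called lower. Equal sums over all genes gave 10 members called higher, 6 assembly factors, 4 complex I genes and 4 complex IV genes, and quantile normalization gave 15 assembly factors called lower. Over all genes, 7727 were called higher and 2130 lower as deposited, 4389 and 4523 after median-of-ratios scaling, 3970 and 4793 after quantile normalization, and 8907 and 1548 with equal sums over all genes. The median difference of all genes moved too: 0.40 as deposited, -0.01 after median-of-ratios scaling, -0.07 after quantile normalization and 0.55 with equal sums. In the pathway lists 14 genes were called higher and 51 lower as deposited. After median-of-ratios scaling 2 were called higher and 84 lower, after quantile normalization 2 were called higher, and with equal sums over all genes 28 were. Signs also turned for Ndufa2 (0.10 after quantile normalization, 0.11 with equal sums), Atp5g2 (0.072 and 0.16), Ndufaf8 (-0.49 after median-of-ratios scaling, -0.17 after quantile normalization), Cox4i2 (-0.13 and -0.57), Cox14 (-0.48 after median-of-ratios scaling), Cox7a2l (-0.14 after it) and Sdhaf4 (0.037 with equal sums). The causes were not tested.

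With 1 library left out, members called lower numbered 89 to 94 and higher 4 to 5, assembly factors called higher 1 to 2, complex III genes called higher 1 to 2, and member transcripts called 0 to 2. The sign varied for Cox14 (-0.026 to 0.088), Ndufaf8 (-0.043 to 0.045) and Atp5g2 (-0.098 to 0.041), none of them called. Uqcc3, near the threshold, was the complex III assembly factor whose call was lost. The replicate numbers do not pair the libraries: correlations of deviations by number were -0.26 to 0.15, and 1 of 10 libraries correlated best with its own number. With the replicate block, 91 members were called lower and 4 higher, with 1 assembly factor and 1 complex III gene called higher, and Cox7c and Usmg5 were not called. Pseudocount, filter, trend and equal sums over nuclear genes changed no call or count of the results named here by over 1.5 times. Depth is unknown, so limits of detection cannot be given.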
